A study of Homo sapiens with 8 samples.

Results

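The genes described here are 35 lysosome genes: SCARB2 with the other membrane proteins of the organelle, its acid hydrolases and their cofactors, subunits of its proton pump, and the transcription factors TFEB and TFE3. They were read through every probe set whose only gene symbol in the platform annotation is one of the 35. That rule gave 84 probe sets of 54675 on the HG-U133 Plus 2.0 array, and it covered 34 of the 35 genes. The single probe set of GLB1 also carries a second gene's symbol, so GLB1 was not analysed here. A probe set is a group of short probes against 1 stretch of a transcript, and 20 of the 34 genes had several.

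Total RNA was measured on 8 arrays, 2 biological replicates in each of 4 groups. Per the labels, the human lines NALM-6 and SUP-B8 were each cultured with 0.5 uM GSK126 or with DMSO for 72 hours. GSK126 inhibits EZH2, the enzyme of Polycomb repressive complex PRC2 that methylates histone H3, and DMSO is the solvent control. The groups were NALM-6 with GSK126, NALM-6 with DMSO, SUP-B8 with GSK126 and SUP-B8 with DMSO. The labels give no genotype and no passage, and they call the replicates biological without saying how the cultures were separated, so the p-values measure the spread between these arrays.

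In all arrays 5 of 5 measured pan-B genes lay above the array median, with a summed level of log2 14.62 to 14.7. That limit alone does not mark a cell type. Both measured erythroid markers (2 of 2) also lay above it in every array, at a summed level of 8.63 to 8.81. Of 8 T and NK markers, 4 did so in SUP-B8 and 3 in NALM-6 arrays (10.15 to 10.3). Of 5 fibroblast markers, 3 and 2 did so (10.27 to 10.47). The precursor B-cell markers separated the labels: 9 of 9 lay above the median in every array labelled SUP-B8, and 3 of 9 in every array labelled NALM-6. DNTT, the terminal transferase of precursor lymphocytes, averaged log2 13.54 ± 0.05 with GSK126 and 13.67 ± 0.13 with DMSO in the SUP-B8 label, against 6.65 ± 0.12 and 6.86 ± 0.04 in the NALM-6 label (SD, n = 2 each). NALM-6 is usually described as a precursor line that carries this enzyme, so the markers go against that label. The SUP-B8 label was not checked against a description of that line. The groups are called by their labels throughout. The 6 mature B-cell markers went the other way, with 2 above the median in every SUP-B8 array and 5 in every NALM-6 array. Of the 8 measured genes of myeloid cells and macrophages, which are rich in lysosomes, 0 lay above the median in any array, and their summed level stayed within log2 9.32 to 9.48. Array medians lay between log2 7.18 and 7.24. In bulk RNA, fewer cells of a type and less RNA per cell cannot be told apart.

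Lysosomes are acid compartments in which proteins, glycans, lipids and nucleic acids are broken down. A proton pump, the V-ATPase, acidifies the lumen, most soluble hydrolases arrive through a mannose phosphate tag, and SCARB2 (also LIMP-2) carries glucocerebrosidase there without that tag. TFEB and TFE3 are related factors that mTORC1 at the lysosomal surface keeps in the cytoplasm. In the nucleus they bind an E-box-like sequence, the CLEAR motif, found before many lysosome genes.

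To show what the CLEAR motif looks like in these genes, 250 bases before the annotated start are printed for 5 members: SCARB2, the gene that changed most, 2 members with 2 motif copies each that were higher after GSK126 in the NALM-6 label (MCOLN1 and GAA), and 2 that were lower there (LAMP1 and NEU1). The sequences are RefSeq's on GRCh38.p14, 5′ to 3′ in the direction of the gene: SCARB2 at chr4:76213825-76214074 (minus strand), MCOLN1 at chr19:7522374-7522623 (plus), GAA at chr17:80101331-80101580 (plus), LAMP1 at chr13:113296989-113297238 (plus) and NEU1 at chr6:31862822-31863071 (minus). Capitals mark CACGTG, and all 8 bases where it stands within TCACGTGA.
SCARB2: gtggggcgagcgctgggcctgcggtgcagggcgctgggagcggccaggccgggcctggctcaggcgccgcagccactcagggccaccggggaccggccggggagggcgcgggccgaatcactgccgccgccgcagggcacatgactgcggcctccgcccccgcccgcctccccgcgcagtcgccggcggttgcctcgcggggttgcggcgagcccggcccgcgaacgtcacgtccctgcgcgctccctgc
MCOLN1: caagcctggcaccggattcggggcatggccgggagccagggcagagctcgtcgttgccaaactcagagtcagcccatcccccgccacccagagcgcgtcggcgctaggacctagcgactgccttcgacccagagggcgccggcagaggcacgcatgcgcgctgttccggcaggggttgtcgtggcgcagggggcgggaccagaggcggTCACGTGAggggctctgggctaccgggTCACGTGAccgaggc
GAA: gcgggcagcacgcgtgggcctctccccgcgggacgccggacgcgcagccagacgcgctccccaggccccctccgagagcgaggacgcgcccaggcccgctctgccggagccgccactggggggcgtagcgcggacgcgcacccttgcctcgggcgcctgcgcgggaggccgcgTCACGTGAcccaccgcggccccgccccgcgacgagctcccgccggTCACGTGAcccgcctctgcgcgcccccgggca
LAMP1: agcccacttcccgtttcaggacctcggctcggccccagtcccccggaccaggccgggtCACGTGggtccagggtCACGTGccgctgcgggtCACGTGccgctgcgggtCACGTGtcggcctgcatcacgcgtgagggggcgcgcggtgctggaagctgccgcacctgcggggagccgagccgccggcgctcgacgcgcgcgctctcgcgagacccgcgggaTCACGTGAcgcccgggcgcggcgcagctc
NEU1: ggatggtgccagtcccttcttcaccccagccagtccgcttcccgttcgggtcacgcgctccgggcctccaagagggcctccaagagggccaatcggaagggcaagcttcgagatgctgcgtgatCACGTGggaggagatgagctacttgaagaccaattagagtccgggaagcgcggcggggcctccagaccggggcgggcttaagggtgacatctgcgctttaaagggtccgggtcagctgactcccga

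CACGTG, which reads the same on both strands, was found in 0 copies in the SCARB2 window, 2 in MCOLN1, 2 in GAA, 5 in LAMP1 and 1 in NEU1. The longer TCACGTGA, which contains CACGTG, occurred in 2, 2 and 1 copies in MCOLN1, GAA and LAMP1. RefSeq's promoter table listed 26 of the 35 members. CACGTG lay in the window of 8 of those 26 (30.8%): ATP6V0D1, CD63, CTSA, CTSD, GAA, LAMP1, MCOLN1 and NEU1. It lay in 7.73% of all 27305 genes listed and in 6.34% of their promoters. TCACGTGA lay in 5 of the 26 (19.2%), namely ATP6V0D1, CTSA, GAA, LAMP1 and MCOLN1, against 1.04% of all genes and 0.854% of promoters. A match describes the letters in the window and is no evidence of binding.

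The first comparison was GSK126 against DMSO in the arrays labelled NALM-6. SCARB2 showed by far the largest change among the members, CTSB and GAA led the hydrolases that were higher, and NEU1 and TFEB led the members that were lower. Each gene was read from its probe set with the highest mean, tested with limma across 13161 genes, and called at a Benjamini-Hochberg adjusted p under 0.05. A log2 difference of 1 is a 2-fold difference. Of the 33 members tested, 8 rose, 6 fell and 19 did not pass, so 42.4% were called. Over all genes tested 39.3% were called, 20.8% higher and 18.5% lower, and the members' share lies near that background. B-cell markers moved in the same arrays: the summed level of the 6 mature markers was log2 14.13 to 14.18 with GSK126 and 14.61 to 14.64 with DMSO, and that of the 9 precursor markers 12.19 to 12.23 and 12.31 to 12.43. MS4A1 (CD20) averaged 12.38 ± 0.02 with GSK126 and 13.34 ± 0.01 with DMSO (SD, n = 2 each). The part of these markers in the members' differences was not tested. At 2-fold or more SCARB2 alone was called, where 2.17% of all genes were. The members' median difference was 0.06, against 0.02 over all genes. After renewed quantile normalization the members' split was 13 higher and 5 lower. CTSL, a cysteine protease, lay below the median of all 8 arrays and was not tested.

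SCARB2 (probe set 224983_at) had log2 levels of 8.85 and 8.98 with GSK126, against 6.32 and 6.29 with DMSO, in the NALM-6 label. Both DMSO arrays lay below their medians, where a transcript is not shown to be above background, and both GSK126 arrays lay far above. The measured difference was 2.61 ± 0.06 (SE, limma adjusted p = 2.21e-07), which is given as at least 1.72 because the DMSO level is only bounded. In the SUP-B8 label the gene had 10.27 and 10.25 with GSK126, against 10.11 and 10.14 with DMSO, so all 4 of those arrays exceeded every NALM-6 array. The change of 0.13 ± 0.06 there did not pass (adjusted p = 0.279).

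The other SCARB2 probe sets gave smaller differences in the NALM-6 label. 201646_at had 8.04 and 7.83 with GSK126, against 5.54 and 5.75 with DMSO, a difference of 2.29 ± 0.09. 201647_s_at had 7.36 and 7.40, against 6.73 and 6.46, a difference of 0.78 ± 0.14 (adjusted p = 0.00298). 215754_at, near the array medians in all arrays, had 7.25 and 7.43 against 7.26 and 7.02 and did not pass (0.20 ± 0.09, adjusted p = 0.107). Thus 3 of 4 probe sets were called, all higher, and with the mean of the 4 the SCARB2 difference was 1.47.

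**Figure D1:**
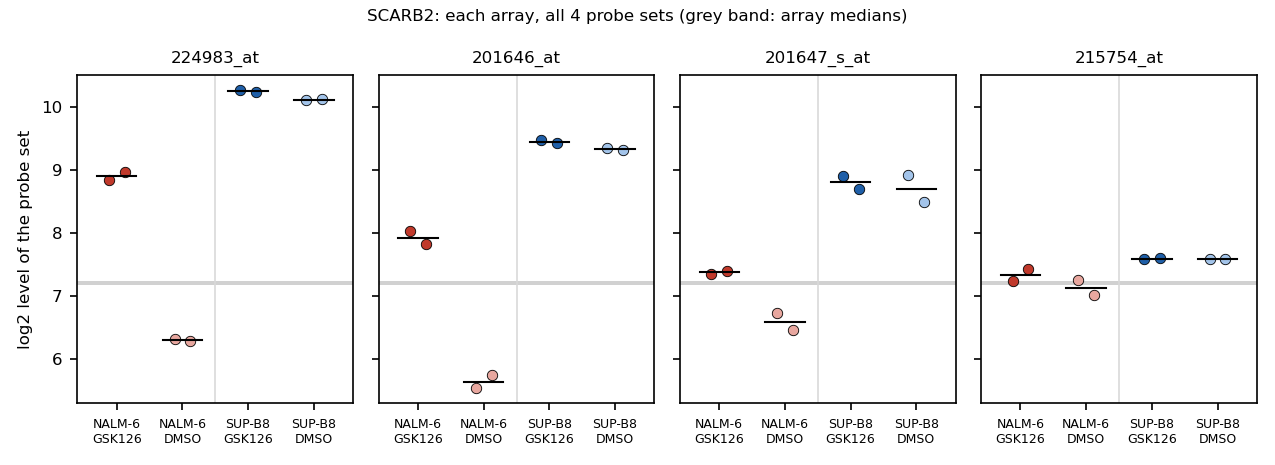
Log2 level of SCARB2 on each of the 8 arrays for its 4 probe sets (points are arrays, lines are means of 2 arrays, the grey band spans the array medians). In 224983_at the NALM-6 arrays with GSK126 sit at 8.85 and 8.98, above the DMSO arrays at 6.32 and 6.29 and below the SUP-B8 arrays, which lie between 10.11 and 10.27.

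Among the other 8 membrane and cholesterol-export proteins, MCOLN1 and LAPTM4A rose and LAMP1 and LAMP2 fell. MCOLN1, the lysosomal calcium channel, had 8.89 and 8.89 with GSK126, against 8.66 and 8.62 with DMSO (0.25 ± 0.05, adjusted p = 0.00639). LAPTM4A, a small membrane protein of late endosomes, had 11.87 and 11.85, against 11.62 and 11.65 (0.22 ± 0.05, adjusted p = 0.00558). For both genes the 2 groups did not overlap, which by itself is weak evidence with 2 arrays a group. LAMP1, a major glycoprotein of the lysosomal membrane, had 12.19 and 12.17 with GSK126, against 12.42 and 12.50 with DMSO, and fell by 0.28 ± 0.05 (adjusted p = 0.00337). Its 4 probe sets all had lower means with GSK126, and 3 of them were called. LAMP2, which also serves chaperone-mediated autophagy, had 11.35 and 11.32, against 11.58 and 11.51 (adjusted p = 0.0122). Its fall of 0.21 ± 0.05 lost the call without NALM-6 DMSO replicate 1 (adjusted p = 0.0606) or NALM-6 GSK126 replicate 2 (adjusted p = 0.0781), and with the mean of its 4 probe sets the difference was -0.12. CD63, a tetraspanin, and NPC1 and NPC2, which pass cholesterol out of the lysosome, differed by 0.08, 0.01 and 0.04 and their groups overlapped. LAPTM5, a membrane protein of blood cells, differed by 0.14 ± 0.05 and did not pass (adjusted p = 0.0585).

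Of the 7 proteases tested, CTSB and TPP1 rose, CTSZ fell and CTSA, CTSD, CTSH and CTSS did not pass. Cathepsin B (CTSB), a cysteine protease, had 10.32 and 10.40 with GSK126, against 9.81 and 9.90 with DMSO, a difference of 0.51 ± 0.06 (adjusted p = 2.36e-04). All 5 of its probe sets were called higher, between 0.29 and 0.83, so the direction did not depend on the transcript stretch read. TPP1, which cuts tripeptides from protein ends, had 11.03 and 11.04, against 10.73 and 10.72 (0.31 ± 0.06, adjusted p = 0.00513) at 200743_s_at. Its other probe sets differed: 214196_s_at fell by 0.32 ± 0.07, 214195_at fell by 0.35 ± 0.08 and 200742_s_at did not pass, and with the mean of the 4 the difference was -0.06. The direction of TPP1 therefore depends on the probe set. CTSZ, a carboxypeptidase, had 9.81 and 9.66 with GSK126, against 9.97 and 10.09 with DMSO, and fell by 0.29 ± 0.09 (adjusted p = 0.0288). That call was lost without NALM-6 DMSO replicate 2 (adjusted p = 0.153) or NALM-6 GSK126 replicate 2 (adjusted p = 0.164). At 212562_s_at, the second CTSZ probe set, the difference was -0.07 and did not pass. CTSH, an aminopeptidase, had 11.68 and 11.66, against 11.30 and 11.39. The groups did not overlap, but the difference of 0.32 ± 0.12 missed the threshold (adjusted p = 0.0602). CTSA, which protects beta-galactosidase and sialidase, differed by 0.21 ± 0.08 (adjusted p = 0.0886), CTSD, an aspartic protease, by 0.06 ± 0.06, and CTSS, the protease of antigen presentation, had 10.52 and 10.58, against 10.51 and 10.61.

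The glycosidases moved both ways. GAA, which degrades glycogen, had 9.0 and 9.07 with GSK126, against 8.51 and 8.57 with DMSO, a rise of 0.50 ± 0.07 (adjusted p = 8.47e-04). NEU1, the lysosomal sialidase, had 9.08 and 9.16, against 9.57 and 9.80, and fell by 0.57 ± 0.08 (adjusted p = 7.46e-04). NEU1 fell furthest of the 33 members, although its DMSO replicates lay 0.23 apart. The other 4 glycosidases did not pass: GLA, the alpha-galactosidase, at -0.20 ± 0.08, GUSB, the beta-glucuronidase, at -0.09 ± 0.07, HEXA, a hexosaminidase subunit, at 0.10 ± 0.05 and MAN2B1, the alpha-mannosidase, at 0.05 ± 0.05.

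In the lipid and sulfate group PSAP and IDS rose. PSAP, the precursor of the saposins that present sphingolipids to their hydrolases, had 11.59 and 11.59 with GSK126, against 11.18 and 11.36 with DMSO (0.33 ± 0.07, adjusted p = 0.00717). IDS, the iduronate sulfatase, had 10.52 and 10.57, against 10.40 and 10.35 (0.17 ± 0.05, adjusted p = 0.0314). It was read by an _x_at probe set, a type whose probes may match other transcripts, and IDS has a near-identical pseudogene copy, so the value is uncertain. Another of its probe sets, 202439_s_at, fell by 0.24 ± 0.06, and the rise lost its call without any of the NALM-6 arrays (adjusted p between 0.0544 and 0.175). ARSA, a sulfatase, LIPA, the acid lipase, and ASAH1, the acid ceramidase, differed by 0.09, 0.09 and -0.15 and did not pass. For ASAH1, the probe set 213902_at had 10.94 and 10.94, against 11.50 and 11.63, and was called (-0.63 ± 0.06, adjusted p = 1.49e-04). The probe set 210980_s_at was called as well (-0.25 ± 0.08, adjusted p = 0.0306), while 1555419_a_at (-0.12) was not. All tested ASAH1 probe sets were lower with GSK126, so the size and the call depend on the probe set, and the direction does not.

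Of the 4 pump genes only ATP6V1H, subunit H of the cytosolic V1 sector, was called. It had 10.74 and 10.74 with GSK126, against 10.94 and 11.04 with DMSO, a fall of 0.25 ± 0.06 (adjusted p = 0.0102) that lost its call without NALM-6 DMSO replicate 2 (adjusted p = 0.0617) or NALM-6 GSK126 replicate 2 (adjusted p = 0.0528). With the mean of its probe sets the difference was -0.11 and did not pass. That mean takes in 1557585_at, which lay below the median of all 8 arrays. ATP6V1A, the catalytic subunit, ATP6V0D1, of the membrane V0 sector, and the accessory ATP6AP1 differed by 0.04, -0.06 and -0.02, and their groups overlapped.

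The 2 factors did not move together. TFEB had 11.29 and 11.32 with GSK126, against 11.67 and 11.66 with DMSO, a fall of 0.37 ± 0.05 (adjusted p = 4.65e-04), and its other probe set fell by 0.29 ± 0.08. TFE3 had 10.55 and 10.60, against 10.42 and 10.49, a difference of 0.12 ± 0.06 that did not pass (adjusted p = 0.139) and was -0.05 with the mean of its probe sets. Among the 8 members with CACGTG in the window, GAA and MCOLN1 rose, LAMP1 and NEU1 fell, and ATP6V0D1, CD63, CTSA and CTSD did not pass. These 8 had calls in each direction, beside 20.8% higher and 18.5% lower over all genes tested. Whether the motif goes with a response was not tested.

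**Figure D2:**
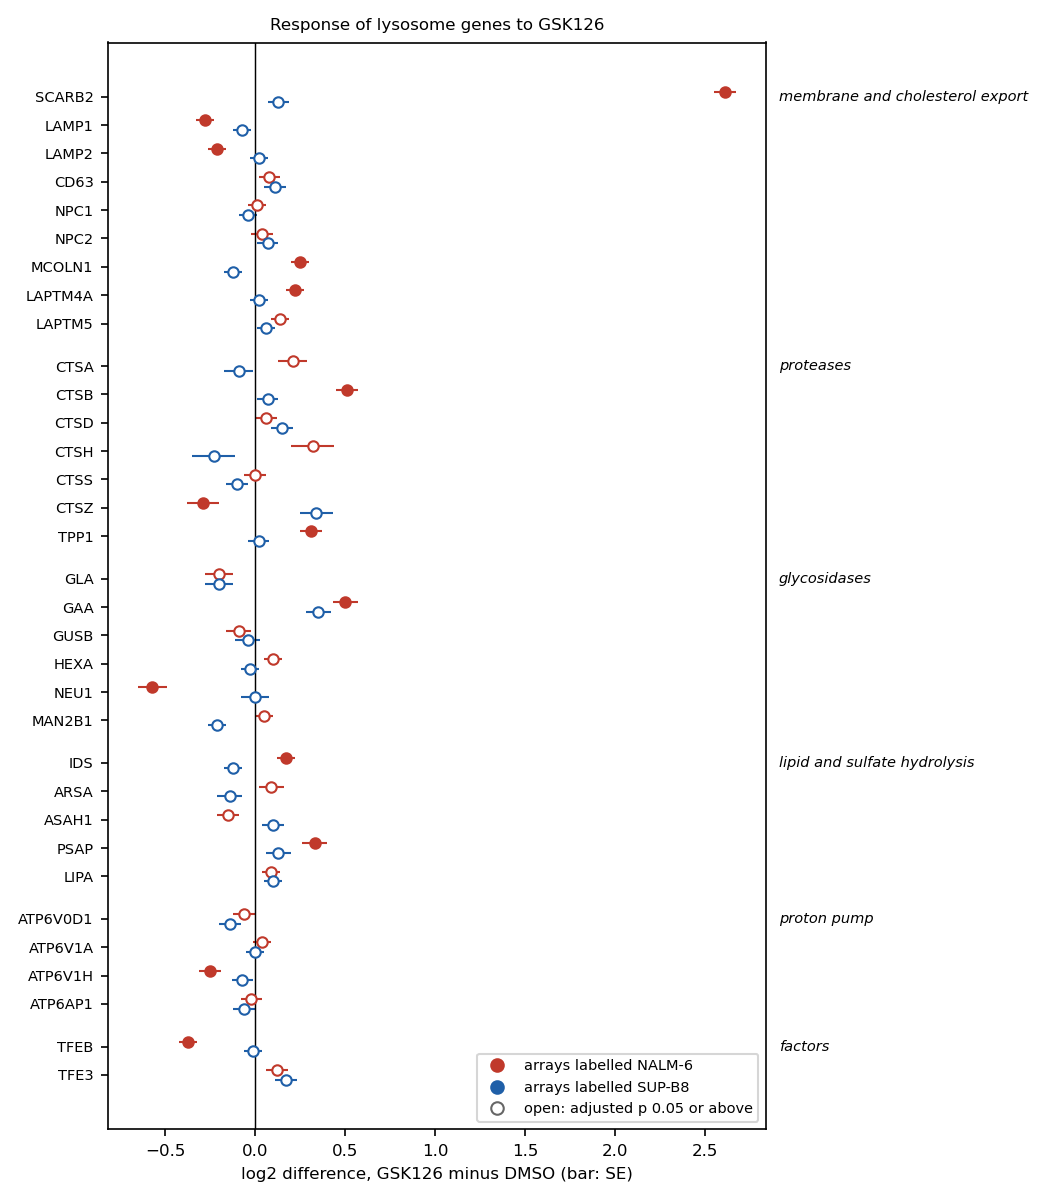
Log2 difference, GSK126 minus DMSO, for the 33 tested members grouped by role (red, NALM-6 label; blue, SUP-B8 label; bars are SE; filled points passed at an adjusted p under 0.05). Filled points appear for 14 members in the NALM-6 label, with SCARB2 at 2.61 and NEU1 at -0.57 as the extremes, and for 0 in the SUP-B8 label.

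In the arrays labelled SUP-B8, 0 of the 33 members were called, where 2.25% of all genes were. The summed level of the mature B-cell markers was log2 10.52 to 10.54 with GSK126 and 10.30 to 10.32 with DMSO in these arrays. At an unadjusted p under 0.05 there were 8 (CTSD, CTSZ, GAA, GLA, IDS, MAN2B1, SCARB2 and TFE3), and 16.7% of all genes reached that level. Differences ran between -0.23 and 0.35, and their median was 0.00, against -0.02 for all genes. Closest to the threshold was GAA, with 9.27 and 9.16 with GSK126, against 8.95 and 8.78 with DMSO. The groups did not overlap, and the difference of 0.35 ± 0.07 missed the threshold (adjusted p = 0.0521, 95% interval 0.18 to 0.51). GAA passed under 4 other settings, and with each array centred on its median its adjusted p was 0.0324. MAN2B1 had 10.25 and 10.23, against 10.45 and 10.46 (-0.21 ± 0.05, adjusted p = 0.0634), and passed under 3 other settings, with an adjusted p of 0.046 in the fit on the means of each gene's probe sets, where MAN2B1, which has 1 probe set, kept its own values. CTSZ lay below the array medians in all 4 arrays, so no size is given for it. CTSH had 7.14 and 7.36, against 7.66 and 7.30, and its groups overlapped. TFEB had 9.72 and 9.72, against 9.76 and 9.71, a difference of -0.01 with a 95% interval from -0.12 to 0.10. TFE3 differed by 0.17 ± 0.06 (adjusted p = 0.203).

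Whether the 2 labels responded differently was tested as the difference of the responses, SUP-B8 minus NALM-6, in the same fit. That difference passed for 11 of 33 members (33.3%), where 25.4% of all genes did. It was lower in SUP-B8 for 7 and higher for 4, and with each array centred on its median the split was 4 and 4. SCARB2 differed by -2.48 ± 0.08 (adjusted p = 4.23e-06), a value that rests on the NALM-6 DMSO level below the array medians and was -1.38 with the mean of its probe sets. CTSB followed with -0.43 ± 0.08 (adjusted p = 0.00583) and MCOLN1 with -0.37 ± 0.08 (adjusted p = 0.00954). For NEU1 the difference was 0.56 ± 0.11 (adjusted p = 0.00794) and for TFEB 0.36 ± 0.07 (adjusted p = 0.00576). In both genes the SUP-B8 arrays with GSK126 overlapped those with DMSO, while the NALM-6 groups stood apart. CTSZ was also called (adjusted p = 0.00764), but its SUP-B8 levels lay below the medians at 210042_s_at, so the size of 0.63 is not a measured one. The second CTSZ probe set, 212562_s_at, above the medians in all 8 arrays, differed by 0.06 ± 0.08 and did not pass (adjusted p = 0.635), and the mean of both gave 0.35. These 6 kept their calls when any of the 8 arrays was left out. CTSH, IDS, TPP1, MAN2B1 and LAMP2, at -0.55, -0.29, -0.29, -0.26 and 0.23, each lost it in at least 1 such omission. With the mean of their probe sets IDS, LAMP2 and TPP1 differed by -0.10, 0.07 and 0.06 and did not pass. The IDS mean takes in 211782_at, 213821_s_at, 236823_at and 202438_x_at, each below the median of all 8 arrays. For TPP1 the probe sets called for the difference of responses went the other way, with 0.32 ± 0.09 at 214196_s_at (adjusted p = 0.0395) and 0.37 ± 0.11 at 214195_at (adjusted p = 0.0441), while 200743_s_at, tested among all probe sets, did not pass (adjusted p = 0.0564). The number called was 6 without NALM-6 GSK126 replicate 2, and 7 without NALM-6 GSK126 replicate 1, NALM-6 DMSO replicate 1, SUP-B8 GSK126 replicate 1 or SUP-B8 GSK126 replicate 2. GAA, at -0.15 ± 0.10, did not pass (adjusted p = 0.31), with a 95% interval from -0.39 to 0.08, so the data do not show a different GAA response in the 2 labels.

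**Figure D3:**
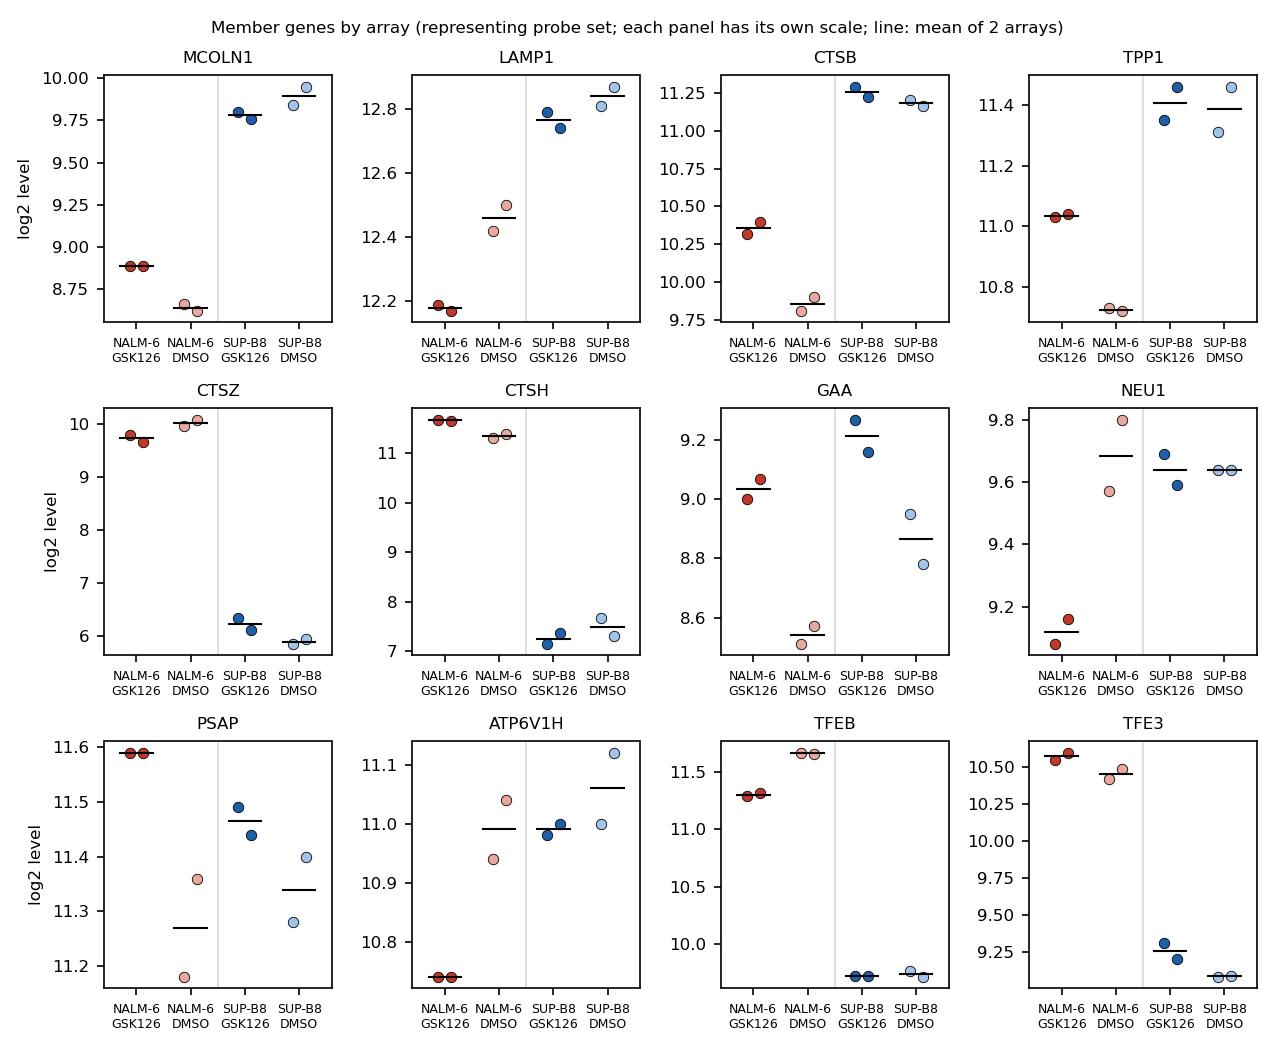
Log2 level on each array for 12 members, each panel with its own scale (points are arrays, lines are means of 2 arrays). NEU1 and TFEB are lower with GSK126 only in the NALM-6 label, CTSB is higher with GSK126 in that label, and CTSH and CTSZ lie near or below the array medians in the SUP-B8 label.

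The lines were also compared with each other, SUP-B8 minus NALM-6, first with DMSO. Of 33 members 29 were called (87.9%), 18 higher and 11 lower in SUP-B8, where 68.3% of all genes were called, 37.8% higher and 30.6% lower. The members' median difference was 0.26, against 0.04 over all genes. At 2-fold or more 10 members were called, where 20% of all genes were. The precursor B-cell markers named above differed between the same arrays, with a summed level of log2 15.96 to 16.05 in SUP-B8 DMSO arrays and 12.31 to 12.43 in NALM-6 DMSO arrays. The mature markers had 10.30 to 10.32 in SUP-B8 DMSO arrays and 14.61 to 14.64 in NALM-6 DMSO arrays, with CCR7, a homing receptor, at 5.64 ± 0.36 and 12.90 ± 0.02 (SD, n = 2 each). The part of both lists in these differences was not tested.

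Members higher in SUP-B8 included membrane proteins, hydrolases and pump subunits. SCARB2 led with 3.82 ± 0.06 (adjusted p = 3.63e-10), or at least 2.93 given the NALM-6 level, at 224983_at. Its other probe sets gave 3.69 at 201646_at, 2.11 at 201647_s_at and 0.46 at 215754_at, all called, and with the mean of the 4 the difference was 2.52, so the floor holds for 224983_at and not for the gene. CTSA had 11.44 and 11.47 in SUP-B8, against 9.38 and 9.64 in NALM-6 (1.94 ± 0.08, adjusted p = 1.36e-07). CTSB differed by 1.33 ± 0.06, MCOLN1 by 1.26 ± 0.05, GUSB by 1.04 ± 0.07 and ATP6V0D1 by 1.03 ± 0.06, and in each of these the 2 lines did not overlap. Smaller positive differences, between 0.25 and 0.77, passed for ATP6AP1, CTSD, TPP1, NPC1, GLA, CD63, LAMP1, MAN2B1, GAA, ARSA, LAPTM4A and NPC2. With the mean of their probe sets GUSB was 0.56, NPC1 0.28 and TPP1 0.41, all still called. The means of GUSB and NPC1 take in dim probe sets. For GUSB 230125_at lay below the median of all 8 arrays, and for NPC1 238568_s_at, 238873_at and 217584_at did.

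Both factors and 2 cathepsins were much lower in SUP-B8. CTSH had 7.66 and 7.30 in SUP-B8, near the array medians, against 11.30 and 11.39 in NALM-6 (-3.86 ± 0.12, adjusted p = 1.49e-08). CTSZ had 5.84 and 5.93, against 9.97 and 10.09, a difference of -4.15 ± 0.09 that is given as at least 2.83 lower. This probe set passed the filter only through the NALM-6 arrays, where it is high. The second CTSZ probe set, 212562_s_at, had 7.42 and 7.43, against 7.69 and 7.63, a difference of -0.24, so the size for CTSZ depends strongly on the probe set, and the mean of both gave -2.19. TFEB had 9.76 and 9.71, against 11.67 and 11.66 (-1.94 ± 0.05, adjusted p = 4.26e-09), and TFE3 had 9.08 and 9.09, against 10.42 and 10.49 (-1.37 ± 0.06, adjusted p = 9.98e-08). The other probe sets of TFEB and TFE3 that passed the filter were lower in SUP-B8 as well, at -0.89 for TFEB and at -1.05 and -0.71 for TFE3, and the mean of the TFE3 probe sets gave -0.80. IDS, LAPTM5, LAMP2, CTSS, ASAH1, ATP6V1A and LIPA were lower by smaller amounts, from -0.82 to -0.16. LIPA lost its call without SUP-B8 DMSO replicate 1 (adjusted p = 0.117) or NALM-6 DMSO replicate 2 (adjusted p = 0.125), when dim probe sets were kept (adjusted p = 0.0523) and when the 4 DMSO arrays were fitted alone (adjusted p = 0.0805), and it was 0.01 with the mean of its probe sets. The second LIPA probe set in that mean, 236156_at, lay below the median of all 8 arrays. With the mean of their probe sets IDS was -0.38, CTSS -0.29 and LAMP2 -0.09, and LAMP2 was not called. LAMP2 was called in both directions across its probe sets, with -0.50 and -0.85 at 200821_at and 226671_at and 0.29 and 0.69 at 203042_at and 203041_s_at. HEXA, NEU1, PSAP and ATP6V1H did not pass, with differences from -0.05 to 0.09.

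With GSK126 the lines differed in 27 of 33 members (81.8%), 16 higher and 11 lower in SUP-B8, where 67.7% of all genes were called. At 2-fold or more 8 members were called, where 17.7% of all genes were. SCARB2 had 10.27 and 10.25 in SUP-B8, against 8.85 and 8.98 in NALM-6, a difference of 1.35 ± 0.06 (adjusted p = 1.05e-07). The gene thus ranked in the order NALM-6 DMSO, NALM-6 GSK126, SUP-B8 DMSO, SUP-B8 GSK126, and the last 2 did not differ beyond the test. CTSH differed by -4.42 ± 0.12, CTSA by 1.64 ± 0.08, TFEB by -1.58 ± 0.05 and TFE3 by -1.32 ± 0.06. CTSZ, again below the medians in SUP-B8, was at least 2.54 lower at 210042_s_at, and the mean of its probe sets gave -1.84. That mean gave -0.71 for TFE3. NEU1 had 9.69 and 9.59 in SUP-B8, against 9.08 and 9.16 in NALM-6 (0.52 ± 0.08, adjusted p = 3.98e-04). LAPTM4A, GAA, MAN2B1, ARSA, HEXA and PSAP did not pass. LAMP2 was again called in both directions, with -0.27 and -0.84 at 200821_at and 226671_at and 0.44 and 0.60 at 203042_at and 203041_s_at. Its mean of -0.02 was not called. LIPA (-0.15) lost its call in each omission of a GSK126 array and ASAH1 (-0.20) in several of them. With the mean of its probe sets LIPA was -0.07 and not called. These line comparisons use the same 8 arrays as the responses, so their values are not independent of them.

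**Figure D4:**
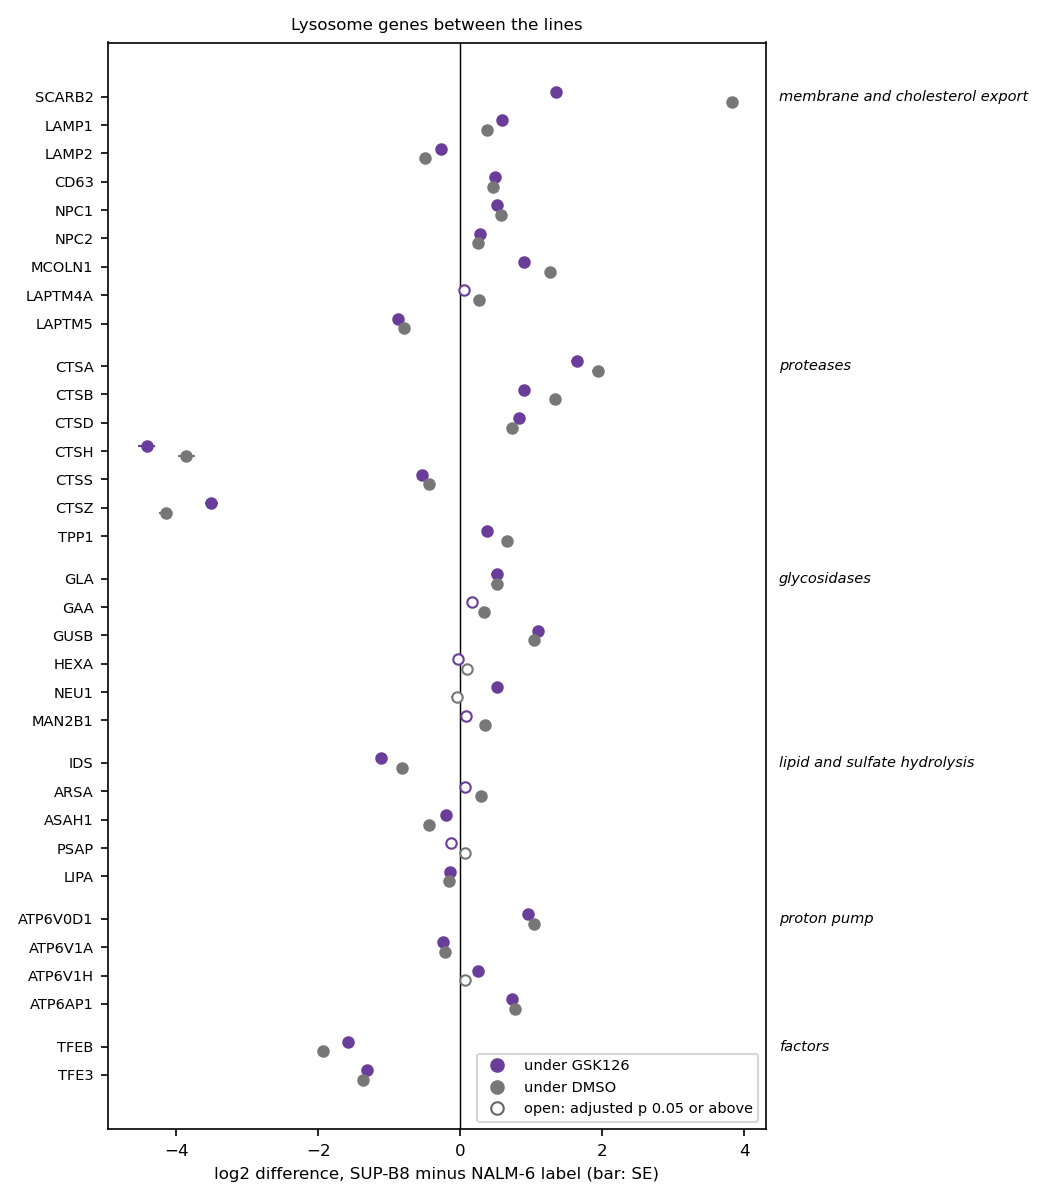
Log2 difference, SUP-B8 minus NALM-6 label, for the 33 tested members grouped by role (purple, with GSK126; grey, with DMSO; bars are SE; filled points passed at an adjusted p under 0.05). SCARB2 stands at 1.35 with GSK126 and 3.82 with DMSO, and CTSH, CTSZ, TFEB and TFE3 lie below 0 in both conditions.

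Read probe set by probe set, 70 of the 84 passed the filter on dim signals and 14 did not. In the NALM-6 label 15 rose and 15 fell with GSK126, where 39.3% of all 30199 probe sets were called. In the SUP-B8 label 0 of the 70 were called, where 1.16% of all probe sets were. Genes with called probe sets in both directions were IDS and TPP1 for the NALM-6 response. Between the lines they were LAMP2 and TPP1 with DMSO, and LAMP2 with GSK126. For these genes a direction holds for the named probe set only.

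Other lysosome genes in the NALM-6 label gave calls in both directions, where 39.3% of all genes were called, 20.8% higher and 18.5% lower. Of 31 other hydrolases and cofactors 11 rose and 7 fell (58.1% called), with a median of -0.01. CTSO, a cysteine protease, averaged 8.15 ± 0.10 with GSK126 and 6.86 ± 0.07 with DMSO (SD, n = 2 each), and as the DMSO level lay below the medians its rise of 1.28 is given as at least 0.95. LGMN, the asparaginyl endopeptidase, fell by 0.78. ARSB, a sulfatase, averaged 6.19 ± 0.13 with GSK126, below the medians, and 7.17 ± 0.12 with DMSO, already near them, so no size is given. Of 32 other membrane proteins and transporters 8 rose and 8 fell (50%), with a median of 0.03, and 4 rose and 8 fell when each array was centred on its median. That count was 9 without NALM-6 DMSO replicate 1, 10 without NALM-6 GSK126 replicate 1 and 8 without NALM-6 GSK126 replicate 2. DRAM1, a membrane protein of p53-driven autophagy, averaged 9.49 ± 0.07 with GSK126 and 7.53 ± 0.31 with DMSO (difference 1.96 ± 0.12, adjusted p = 1.44e-05). SLC15A4, a histidine and peptide transporter, averaged 10.02 ± 0.01 and 11.38 ± 0.02 and fell by 1.36 ± 0.06 (adjusted p = 2.52e-06), or by 0.87 with the mean of its probe sets. Among 16 other V-ATPase subunits 3 rose and 6 fell (56.2%), and 5 rose and 6 fell after renewed quantile normalization. TCIRG1, an a-type subunit of the V0 sector, rose by 0.74 and ATP6V1C1 fell by 0.46, or by 0.26 with the mean of its probe sets.

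Of 3 lists of genes that act around the lysosome, 2 had more falls than rises, beside 20.8% higher and 18.5% lower over all genes. Of 22 regulators of TFEB-type factors and of mTORC1 at the lysosome 4 rose and 10 fell (63.6%), with a median of -0.18, and 1 rose and 8 fell with the mean of each gene's probe sets. RRAGC, a Rag GTPase that recruits mTORC1, fell by 0.97 and RRAGD, its relative, rose by 0.76. FLCN, which acts on these GTPases, fell by 0.43. Of 35 genes of sorting and delivery 4 rose and 11 fell (42.9%, near the 39.3% of all genes), with a median of -0.05. HPS1, of a complex needed for lysosome-related organelles, fell by 0.65 and GNPTAB, which builds the mannose phosphate tag, rose by 0.60, and the means of their probe sets gave -0.24 and 0.27. Of 29 autophagy genes 7 rose and 7 fell (48.3%), with 10 and 8 after renewed quantile normalization. SQSTM1, a cargo receptor, fell by 0.81 (0.51 lower with the mean of its probe sets) and OPTN, another, rose by 0.74. UVRAG, a partner of the autophagy lipid kinase, fell by 1.01.

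In the SUP-B8 label 3 of the 31 other hydrolases rose with GSK126 (CTSO, SIAE and GGH) and 0 fell, which is 9.68%, where 2.25% of all genes were called. CTSO averaged 8.61 ± 0.06 with GSK126 and 8.05 ± 0.01 with DMSO (0.56 ± 0.06, adjusted p = 0.00744). SIAE, a sialic acid esterase, differed by 0.42, which did not pass with the mean of its probe sets (0.15), and GGH, a hydrolase of folate polyglutamates, by 0.40. Without SUP-B8 GSK126 replicate 1 the count for this list was 0. LAPTM4B (0.32) was the only one of 32 other membrane proteins called, and that call was lost without any SUP-B8 array. FNIP2, a partner of FLCN, rose by 0.57 among the 22 regulators, and the count there was 0 without SUP-B8 DMSO replicate 1, SUP-B8 GSK126 replicate 1 or SUP-B8 GSK126 replicate 2. Calls were 0 among the 16 V-ATPase subunits, the 35 sorting genes and the 29 autophagy genes, a V-ATPase count that was 1 under 4 other settings.

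Between the lines with DMSO, the other lysosome genes again included members at both extremes. LGMN was at least 3.02 lower, MCOLN2, a relative of MCOLN1, at least 3.71 lower, and TFEC, a relative of TFEB, at least 1.85 lower in SUP-B8. These genes lay below the medians in every SUP-B8 array and passed the filter only through the NALM-6 arrays. That they were tested at all thus depended on the line where they are high. With the mean of its probe sets MCOLN2 was -3.69, so its floor holds for the probe set read and not for the gene. RRAGD was 3.72 ± 0.05 higher and HPS4, partner of HPS1, 2.33 ± 0.06 higher, while UVRAG was lower by 2.43 on the log2 scale. The called counts were 15 higher and 9 lower of 31 hydrolases, 12 and 13 of 32 membrane proteins, 9 and 5 of 16 V-ATPase subunits, 12 and 7 of 22 regulators, 17 and 11 of 35 sorting genes and 12 and 9 of 29 autophagy genes. Called shares ran between 72.4% and 87.5%, where 68.3% of all genes were called, 37.8% higher and 30.6% lower.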

How the data were processed

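Expression was measured on 8 one-colour arrays of 4 groups. The deposited values are on a log2 scale, read from the values themselves. Per the submitters' processing notes MAS5 and RMA were used; their roles and versions are not given in the sources used here. Normalization between arrays hides a change shared by most transcripts. Depth has no meaning for arrays, and their number limits the precision.

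The platform annotation gave 1 gene symbol to 41097 of 54675 probe sets, several to 1801 and none to 11777. For each of 19775 genes the probe set of highest mean was used. Genes with 2 or more of 8 arrays above the array median of all probe sets were tested, which left 13161. A gene high in a single line was thus tested through that line, and such genes are part of the called counts between the lines. A group with all arrays below their medians was taken as not above background, a limit chosen after results were seen. Differences against it are given as at least the distance of the other group's mean from those medians.

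limma 3.58.1 in R 4.3.3 fitted 1 mean per group with 4 residual degrees of freedom and moderated variances, and Python 3.11.15 prepared the tables. P-values were adjusted by Benjamini-Hochberg over all genes tested. The smallest two-sided p of an exact permutation test between 2 groups of 2 is 0.333, so calls come from the model. For the same reason, groups said not to overlap are no evidence of a difference by that alone. Members that were not called often did not overlap either. All 35 genes were described, called or not, and from each other list up to 4 called genes of largest size were chosen. The members, the lists and the tests were chosen with earlier results of these data known. The scripts were tested on simulated data. The alternatives covered the filter, the choice of probe set, the scaling, the variance prior, the arrays used and a replicate block. Promoter windows came from RefSeq.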

Additional observations from a re-analysis of the deposited data

Results flagged for a closer look

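The response to GSK126 differed between the labels, by limma's test of the difference itself, for 11 members. The response was smaller or more negative in SUP-B8 than in NALM-6 for SCARB2 (-2.48), CTSH (-0.55), CTSB (-0.43), MCOLN1 (-0.37), TPP1 (-0.29), IDS (-0.29) and MAN2B1 (-0.26). It was larger or less negative for CTSZ (0.63), NEU1 (0.56), TFEB (0.36) and LAMP2 (0.23). The SCARB2 size rests on NALM-6 DMSO levels below the array medians and was -1.38 with the mean of its probe sets. The CTSZ size rests on SUP-B8 levels below the medians, and 212562_s_at gave 0.06, which did not pass. For TPP1 the probe sets 214196_s_at and 214195_at were called the other way (0.32 and 0.37). The calls of CTSH, IDS, TPP1, MAN2B1 and LAMP2 were each lost in several omissions of an array. Over all genes 25.4% passed the same test, and groups of 2 arrays are too small to look for a single outlying array.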

How the results depend on the processing

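In the SUP-B8 label the number of members called for GSK126 was 0 in the report and 1 with a stricter filter, 2 when a gene's probe sets were averaged, 1 after renewed quantile normalization, 1 with each array centred on its median and 3 with a trended robust prior. It stayed 0 in all 8 omissions of an array (0 to 0). In the NALM-6 label the count was 14, and 10 to 16 over the omissions. For the difference of responses it was 11, 7 when dim probe sets were kept, and 6 to 9 over the omissions. Between the lines it was 29 with DMSO (28 to 29) and 27 with GSK126 (25 to 28). The directions that turned were TPP1 with the mean of its probe sets (-0.06 for the NALM-6 response, 0.06 for the difference), LIPA between the lines with DMSO (0.01, same setting), TFE3 in the NALM-6 label (-0.05, same setting) and TFEB in the SUP-B8 label (-0.01 in the report, 0.00 when centred, and -0.03 to 0.02 over the omissions, with 0.02 without SUP-B8 DMSO replicate 1). For LIPA the mean joins 201847_at (-0.16) with 236156_at, which lay below the median of all 8 arrays. The latter averaged 5.37 in SUP-B8 and 5.2 in NALM-6 with DMSO, so the LIPA turn rests on a dim probe set. The cause of the other turns was not tested. Of 1502 member values under the alternatives 1409 kept direction and side of the threshold. In the NALM-6 label 9 calls held in every alternative (SCARB2, LAMP1, MCOLN1, LAPTM4A, CTSB, GAA, NEU1, PSAP and TFEB).

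When a replicate block was fitted, the counts of called members were 0 for the SUP-B8 response, 13 for the NALM-6 response, 9 for their difference, 29 between the lines with DMSO and 26 with GSK126. The labels tie no number to a shared culture or day, and deviations of same-numbered arrays correlated between -0.20 and 0.13. With so few arrays in each group, these correlations cannot show whether the numbers pair the samples, which remains unknown. Signal near or below the array medians limits SCARB2 in NALM-6 DMSO arrays and CTSZ in SUP-B8 arrays.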
